A study of Mus musculus with 7 samples.

Results

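A set of 10 genes of intraepithelial lymphocytes, the T cells that sit between the absorptive cells of the gut lining, were followed in RNA scraped from the mouse duodenum. They were taken by gene name, with no threshold on a measured value, and all 10 were among the 22987 genes of the deposited table. The choice was made with earlier results of these data known. They fall into 4 genes of the cytotoxic granule (Gzma, Gzmb, Prf1 and Nkg7), 3 T-cell identity genes (Cd3e, Cd3g and Cd8a) and 3 further genes of the cell surface and of chemokine output (Cd160, Itgae and Ccl5). The series holds 4 libraries from C57BL/6 mice with the T337S change in Nlrc4, a sensor protein of the inflammasome, and 3 from wild-type C57BL/6 mice, all 6 weeks old. Both genotypes received no treatment that the labels name. The labels do not say whether the change was present in every cell or whether each library is a separate animal. The p-values therefore measure only the spread between these libraries. Each library title has its own number, whose meaning is not stated, in separate runs by genotype. Anything that goes with this numbering cannot be told apart from genotype. The comparison asks how the genotypes differ in the RNA of this tissue, and here whether granule genes and T-cell identity genes differed alike.

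Cytotoxic lymphocytes store perforin and granzymes in secretory granules. On contact with a target cell, perforin opens the way and granzymes, which are serine proteases, cleave proteins inside the target and start its death. Lymphocytes of the small intestinal lining keep granzyme RNA at a high level without acute infection, and many carry CD8 as a homodimer of its alpha chain. Integrin alpha E, encoded by Itgae, ties them to E-cadherin on epithelial cells.

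The start regions of the granule genes Gzmb, Gzma and Prf1 are shown because the 3 encode effectors of one granule and gave different results in the comparison. Each window, credited to RefSeq (GRCm38.p6 table), runs from 250 bases before to 50 bases after the annotated start, and each matched the mm9 genome exactly at 1 place on its chromosome. Gzmb lies at chr14:56881122-56881421 (minus strand), Gzma at chr13:113891140-113891439 (minus strand) and Prf1 at chr10:60760334-60760633 (plus strand), all in mm9. Capitals mark matches on either strand to TGTGGT, the core bound by RUNX factors, to AGGTGT, a T-box core, or to TGACGT, a core bound by CREB and ATF factors (CRE core), motifs of factor families known in T cells.
Gzmb: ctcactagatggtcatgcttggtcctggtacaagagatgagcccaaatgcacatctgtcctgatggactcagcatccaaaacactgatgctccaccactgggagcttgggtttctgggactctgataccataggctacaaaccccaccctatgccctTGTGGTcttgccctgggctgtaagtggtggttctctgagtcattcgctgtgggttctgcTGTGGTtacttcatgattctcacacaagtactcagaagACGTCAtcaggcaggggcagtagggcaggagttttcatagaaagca
Gzma: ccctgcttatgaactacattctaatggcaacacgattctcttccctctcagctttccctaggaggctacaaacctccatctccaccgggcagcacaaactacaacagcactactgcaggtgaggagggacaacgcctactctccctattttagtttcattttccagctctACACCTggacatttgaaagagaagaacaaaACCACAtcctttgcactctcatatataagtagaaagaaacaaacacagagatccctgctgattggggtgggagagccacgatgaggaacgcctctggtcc
Prf1: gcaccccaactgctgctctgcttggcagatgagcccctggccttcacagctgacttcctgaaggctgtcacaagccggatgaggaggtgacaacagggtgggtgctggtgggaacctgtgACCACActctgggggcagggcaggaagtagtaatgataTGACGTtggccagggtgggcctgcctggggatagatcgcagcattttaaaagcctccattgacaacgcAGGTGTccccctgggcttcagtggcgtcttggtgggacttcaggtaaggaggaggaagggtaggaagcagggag
The Gzmb window held 2 RUNX cores and 1 CRE core and no T-box core. The Gzma window held 1 RUNX core and 1 T-box core, and the Prf1 window held 1 match to each of the motifs. Among the 8 of 10 genes with a window in the table, 5 held a RUNX core, 5 a T-box core and 3 a CRE core. This count is per gene, and Cd160 has 2 windows. Of 32851 windows of all genes, counted per window, 16.8% held the RUNX core, 13.7% the T-box core and 7.51% the CRE core. These matches describe letters in the windows and show no binding.

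Levels are in RPKM, which divides reads by gene length and by library depth, so they can be ranked between genes. Across the 7 libraries the mean level fell from 248 RPKM for Gzma through 142 for Ccl5, 63.0 for Gzmb, 23.3 for Cd3g, 17.9 for Nkg7, 14.3 for Cd8a, 7.52 for Cd3e, 7.20 for Itgae and 2.89 for Cd160 to 0.562 for Prf1. Neighbours in this order whose ranges over libraries overlapped were Cd3g and Nkg7, Nkg7 and Cd8a, and Cd3e and Itgae. Prf1 was the lowest of the 10, and still rested on 22.4 to 64.3 reads per kilobase of gene in each library, computed from its RPKM and the mapped reads.

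**Figure D1:**
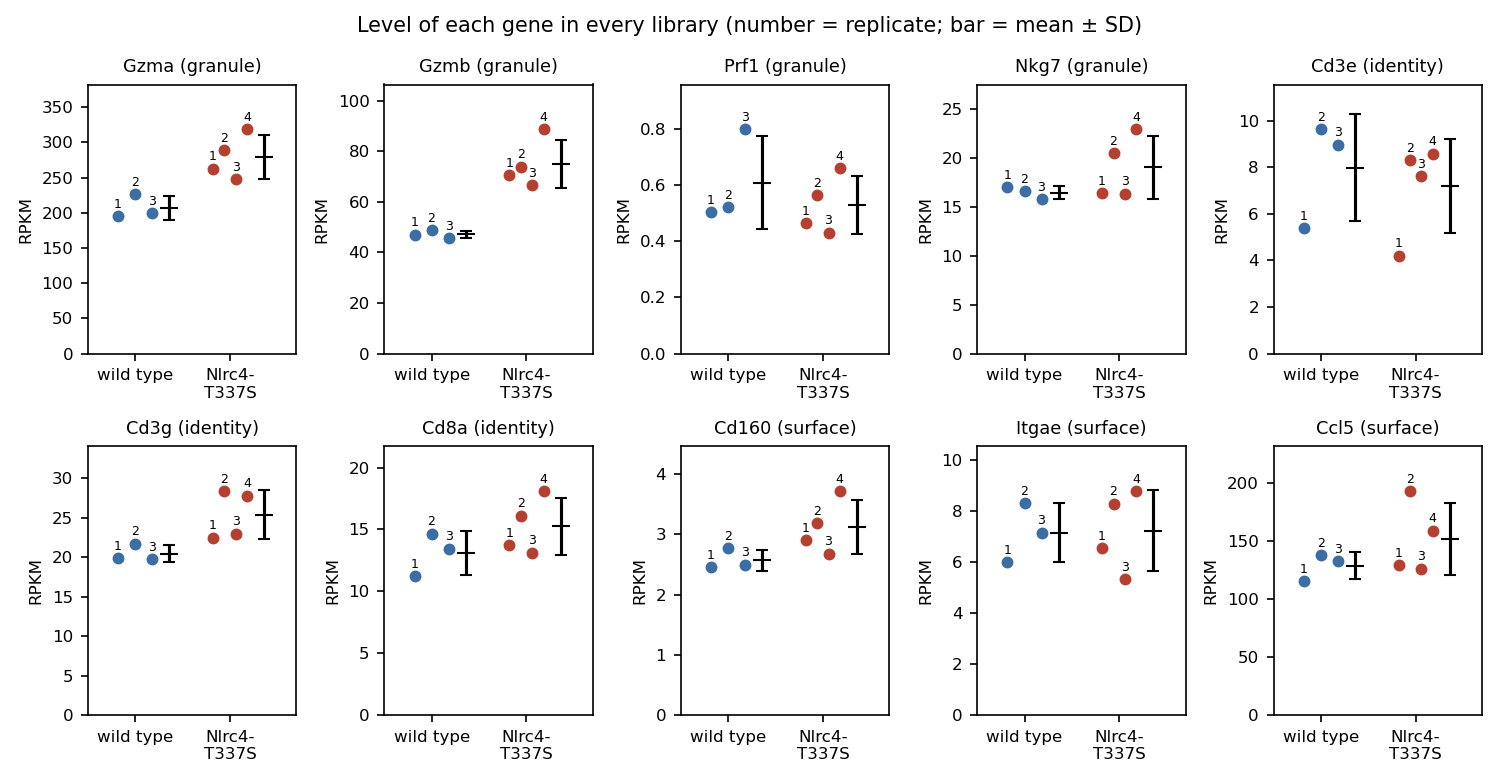
RPKM of each of the 10 genes in every library (vertical axes start at 0; horizontal axis, genotype; numbers, replicates; bars, mean ± SD, n = 4 and 3). Gzmb, Gzma and Cd3g separate the genotypes, while the other 7 genes overlap, with Cd3e lowest in replicate 1 of each genotype.

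Of the 4 granule genes Gzmb rose in the mutant libraries, Gzma separated the genotypes without passing the test, and the pore protein gene Prf1 and the granule membrane gene Nkg7 overlapped between genotypes. Gzmb encodes granzyme B, which cleaves after aspartate and activates caspases. It stood at 70.7, 73.9, 66.6 and 88.7 RPKM in Nlrc4-T337S replicates 1 to 4 and at 47.1, 48.7 and 45.6 in wild-type replicates 1 to 3. Every mutant library was above every wild-type library, and the wild-type libraries lay close together. The means were 75.0 ± 9.61 (SD, n = 4) and 47.1 ± 1.53 (SD, n = 3), 59.1% higher in the mutant. The log2 change was 0.66 (SE 0.11, 95% interval 0.40 to 0.91), and it passed over all genes (limma adjusted p = 0.0392 by Benjamini-Hochberg). The call was not stable to the removal of libraries. It was kept without Nlrc4-T337S replicate 2 (adjusted p = 0.0158), and lost without Nlrc4-T337S replicate 1 (0.0921), 3 (0.0526) or 4 (0.0709) and without wild-type replicate 1 (0.206), 2 (0.181) or 3 (0.110), with log2 changes of 0.57 to 0.71 in these 7 fits by limma.

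Gzma encodes granzyme A, a protease that cleaves after basic residues. It stood at 263, 289, 248 and 318 RPKM in the mutant libraries and at 195, 226 and 199 in wild type. The groups did not overlap, and the means were 280 ± 31.1 (SD, n = 4) and 207 ± 16.9 (SD, n = 3), 35.2% higher. The log2 change of 0.43 (SE 0.12, 95% interval 0.15 to 0.71) missed the threshold over all genes (limma adjusted p = 0.122). Median-of-ratios scaling, which removes a shift shared by most genes, gave Gzma a log2 change of 0.61, which passed (limma adjusted p = 0.0417).

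Prf1 encodes perforin, and Nkg7 a membrane protein of cytotoxic granules. Prf1 stood at 0.463, 0.563, 0.430 and 0.659 RPKM in the mutant libraries and at 0.503, 0.520 and 0.797 in wild type. The groups overlapped, wild-type replicate 3 was the highest of all 7, and the log2 difference was -0.10 (95% interval -0.42 to 0.22; limma adjusted p = 0.694). Its sign turned without that library (0.019), without Nlrc4-T337S replicates 1 and 3 together (0.014) and after quantile normalization (0.17), so no direction is given. Nkg7 stood at 16.4, 20.5, 16.3 and 22.9 RPKM in the mutant libraries and at 17.0, 16.6 and 15.7 in wild type. Mutant replicates 2 and 4 were above wild type while replicates 1 and 3 lay within it, with a log2 difference of 0.19 (95% interval -0.11 to 0.49; limma adjusted p = 0.413), which was 0.099 without Nlrc4-T337S replicate 4.

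The T-cell identity genes gave no call, and their values ran from a small difference without overlap in Cd3g to wide scatter in Cd3e. Cd3g and Cd3e encode the gamma and epsilon chains of CD3, the signalling part of the T-cell receptor complex. Cd3g stood at 22.5, 28.4, 23.0 and 27.8 RPKM in the mutant libraries and at 19.9, 21.7 and 19.7 in wild type. The groups did not overlap, by a margin of less than 1 RPKM between mutant replicate 1 and wild-type replicate 2. The log2 difference was 0.30 (SE 0.11, 95% interval 0.04 to 0.56; limma adjusted p = 0.179), and 0.48 after median-of-ratios scaling, where it passed (limma adjusted p = 0.0418). Cd3e stood at 4.20, 8.31, 7.61 and 8.58 RPKM in the mutant libraries and at 5.37, 9.62 and 8.96 in wild type. Replicate 1 of each genotype was the low library, and the coefficients of variation of 28.2% and 28.7% were the largest of the 10 genes. Its log2 difference of -0.15 (95% interval -0.75 to 0.45; limma adjusted p = 0.757) turned positive after median-of-ratios scaling (0.014), after quantile normalization (0.019), without Nlrc4-T337S replicate 1 (0.069) and without replicates 1 and 3 (0.12). Cd8a encodes the alpha chain of CD8, the co-receptor for MHC class I. It stood at 13.7, 16.1, 13.1 and 18.1 RPKM in the mutant libraries and at 11.2, 14.6 and 13.5 in wild type. The groups overlapped, and the log2 difference was 0.21 (95% interval -0.11 to 0.53; limma adjusted p = 0.394). It was 0.11 without wild-type replicate 1 and 0.13 without Nlrc4-T337S replicate 4.

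The surface and chemokine genes overlapped between genotypes as well. Cd160, a receptor of intraepithelial lymphocytes and NK cells that binds HVEM, ranged from 2.68 to 3.72 RPKM in the mutant and from 2.45 to 2.77 in wild type (log2 difference 0.23, 95% interval -0.04 to 0.51; limma adjusted p = 0.294). Its exons overlap those of Pdzk1, on the opposite strand and at 153 to 227 RPKM, and the kit does not mark strand, so reads of the pair cannot be told apart where they overlap. Itgae ranged from 5.32 to 8.79 RPKM and from 6.00 to 8.31, mutant first, with a log2 difference of 0.00 (95% interval -0.40 to 0.41; limma adjusted p = 0.996). Ccl5, a chemokine that draws T cells and is stored by cytotoxic lymphocytes, ranged from 126 to 193 RPKM and from 115 to 138 (log2 difference 0.22, 95% interval -0.14 to 0.59; limma adjusted p = 0.434). The Ccl5 difference was 0.098 without Nlrc4-T337S replicate 2 and 0.15 without wild-type replicate 1. None of these 3 genes passed.

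Among the 10 genes, 1 passed upward and 0 downward, where 0.3% of the 10987 tested genes passed upward, 0.592% downward and 0.892% in either direction. At an unadjusted limma p under 0.05, 3 of the 10 were higher, where 1.86% of tested genes were. All 10 had a mean of at least 0.5 RPKM and were tested. They were chosen with earlier results known, so the shares given here describe the 10 and do not test them as a set. The groups did not overlap for 3 genes, Gzma, Gzmb and Cd3g, all higher in the mutant, where 1.97% of tested genes had no overlap upward and 17.3% downward, 19.3% in all. The median log2 difference was 0.22 over the 10 genes, 0.31 over the 4 granule genes and 0.21 over the 3 identity genes, beside -0.15 over all tested genes. After median-of-ratios scaling those medians were 0.38, 0.49 and 0.38, beside 0.01 over all tested genes, and Gzma, Gzmb and Cd3g passed upward, where 0.62% of genes did. In bulk RNA a change in the number of cells of a type and a change in RNA per cell cannot be told apart.

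**Figure D2:**
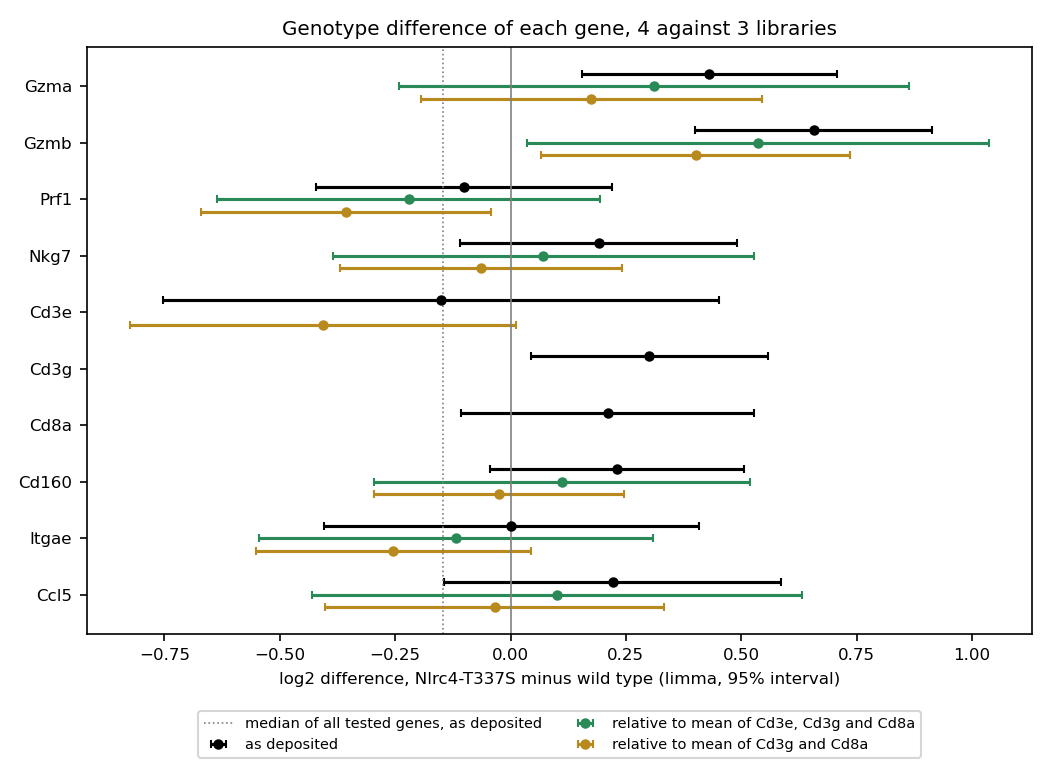
Log2 difference between genotypes for each gene with its 95% interval from limma (horizontal axis, log2, Nlrc4-T337S minus wild type; 4 against 3 libraries), as deposited and relative to 2 versions of the T-cell identity level. Gzmb lies above 0 in the 3 versions drawn, and its 0.66 as deposited is the largest difference drawn. Intervals of the 2 relative versions are too narrow, because all genes share the identity level.

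Granule genes were then set against T-cell identity genes within each library. Relative to the mean log2 level of Cd3e, Cd3g and Cd8a, Gzmb differed by 0.54 (SE 0.26, 95% interval 0.04 to 1.04), Gzma by 0.31 (SE 0.28, -0.24 to 0.86), Nkg7 by 0.07 (SE 0.23, -0.39 to 0.53) and Prf1 by -0.22 (SE 0.21, -0.64 to 0.19). None passed over all genes by limma, with adjusted p = 0.177, 0.487, 0.845 and 0.505, where 9.92% of the 10984 genes tested this way passed, 0.473% upward and 9.45% downward. The identity level enters every gene of that fit, so its spread between libraries is part of every difference. The fit treats genes that share this level as independent, so its 95% intervals are too narrow for 7 libraries. An interval there that leaves out 0 is therefore not read as a difference. With the identity level taken from Cd3g and Cd8a alone, a choice made after the scatter of Cd3e was seen, Gzmb differed by 0.40 (SE 0.16, 95% interval 0.07 to 0.74) and passed (limma adjusted p = 0.0442). In that fit 52.4% of genes passed, most of them downward, and 0.428% passed upward, so an adjusted p there asks less of a single gene. There Prf1 differed by -0.36 (95% interval -0.67 to -0.04; limma adjusted p = 0.0539), Gzma by 0.18 and Nkg7 by -0.06. With array weights and identity from the 3 genes, Gzma and Gzmb passed upward by limma, where 1.88% of genes did, and Prf1 downward, where 41.3% did.

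Simple ratios give the same RPKM values library by library, so they are not separate support. Gzmb per Cd3g was 3.15, 2.60, 2.90 and 3.19 in the mutant libraries and 2.37, 2.24 and 2.31 in wild type. Every mutant library was above every wild-type library, where 0.473% of genes had such a separation in their ratio to Cd3g. Gzmb per Cd8a was 5.16, 4.58, 5.07 and 4.89 in the mutant and 4.20, 3.32 and 3.39 in wild type, again without overlap, where 0.51% of genes separated upward. Gzmb per Cd3e was 16.8, 8.90, 8.76 and 10.3 in the mutant and 8.76, 5.06 and 5.09 in wild type, and the lowest mutant library and the highest wild-type library met, where 0.446% of genes separated upward. Gzma per Cd8a separated too, at 17.6 to 19.2 against 14.8 to 17.4, while Gzma per Cd3g overlapped, at 10.2 to 11.7 against 9.80 to 10.4. Prf1 per Cd3g was lower in every mutant library, at 0.0187 to 0.0237 against 0.0240 to 0.0405, where 62% of genes separated downward in their ratio to Cd3g, so that this separation is shared by most genes. Prf1 per Cd8a overlapped. Nkg7 overlapped in all 3 of its ratios. The 12 ratios are a description with no test, and the ratios of one library share its identity value.

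**Figure D3:**
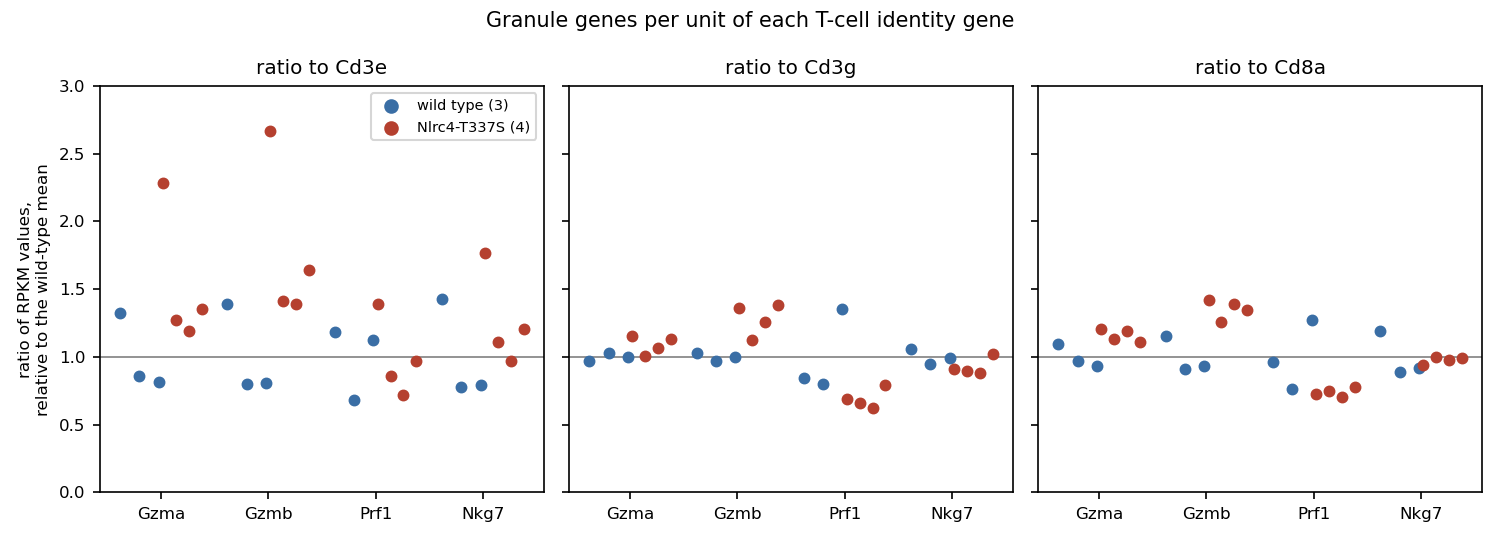
Ratio of each granule gene to Cd3e, Cd3g and Cd8a in every library, divided by the wild-type mean of that ratio (vertical axis from 0; points, libraries; 3 wild type and 4 Nlrc4-T337S). Gzmb stands apart from wild type per Cd3g and per Cd8a, and Nkg7 in none of its ratios.

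Averaged over the 4 granule genes, the granule level exceeded the identity level by 1.03, 0.70, 0.72 and 0.81 log2 units in the mutant libraries and by 0.84, 0.48 and 0.60 in wild type. The groups overlapped, since wild-type replicate 1 was above 3 of the 4 mutant libraries. The mean excess was 0.82 ± 0.15 (SD, n = 4) and 0.64 ± 0.19 (SD, n = 3), a difference of 0.17. That difference was 0.094 without wild-type replicate 2, 0.10 without Nlrc4-T337S replicate 1 and 0.28 without wild-type replicate 1. With identity from Cd3g and Cd8a it was 0.34 ± 0.05 and 0.30 ± 0.09, a difference of 0.04. The granule genes did not separate from the identity genes as a group of 4.

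Across the 7 libraries the 10 genes mostly rose and fell together, with Prf1 and Cd3e apart. Pearson correlations of log2 levels had a median of 0.67 over the 45 pairs, and 41 pairs were above 0. Gzma and Gzmb gave 0.97, Gzma and Cd160 0.95, and Gzma and Cd3g 0.94. The lowest were Gzmb and Prf1 at -0.15, Gzma and Prf1 at -0.08, Gzmb and Cd3e at -0.07 and Prf1 and Cd3g at -0.01. Pairs share libraries, depth and the genotype difference, so these values describe the 7 libraries only.

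Other genes listed for these cells gave no call, where 0.892% of all tested genes passed in either direction. Lists this short can lack a call at that share, so its absence is not read as a result. The lists were not limited to genes that only lymphocytes express. Of the other granule and killing genes 13 of 16 were tested, with 0 higher and 0 lower and a median log2 difference of -0.04. The smallest p-values were those of Ctsc, cathepsin C, which activates progranzymes, at 6.41 ± 0.517 (SD, n = 4) and 8.25 ± 0.978 RPKM (SD, n = 3; limma adjusted p = 0.154), and of Tnfsf10, the death ligand TRAIL, at 17.1 ± 1.26 and 14.1 ± 1.796 (limma adjusted p = 0.198), mutant first. Of the other T-cell receptor and signalling genes 14 of 19 were tested, with no call and a median of -0.10. Among them Lcp2, an adaptor of T-cell receptor signalling, stood at 1.92 ± 0.347 and 2.44 ± 0.378 RPKM (limma adjusted p = 0.288) and Fyb, another adaptor, at 2.597 ± 0.658 and 3.35 ± 0.521 (limma adjusted p = 0.3003).

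Receptors of intraepithelial lymphocytes and NK cells had 22 of 25 genes tested, no call and a median log2 difference of -0.04. Differences were positive for 10 of the 22 and negative for the rest. The largest positive ones were Il2rb (0.29), Lag3 (0.24), Cd7 (0.24) and Cd96 (0.22). The largest negative ones were Itgal (-0.50), Cxcr3 (-0.36), Hcst (-0.31) and Tyrobp (-0.28). Itgal, an integrin chain of leukocytes, stood at 0.520 ± 0.256 and 0.933 ± 0.347 RPKM (limma adjusted p = 0.238) and Gpr55, a lipid receptor of intraepithelial lymphocytes, at 2.78 ± 0.5004 and 3.44 ± 0.336 (limma adjusted p = 0.282). Cytokines, chemokines and transcription factors had 12 of 19 tested, no call and a median of -0.12. Id2 stood at 24.6 ± 1.74 and 28.3 ± 2.66 RPKM (limma adjusted p = 0.286) and Bcl11b, a T-lineage factor, at 0.451 ± 0.126 and 0.694 ± 0.121 (limma adjusted p = 0.214). All these medians lie between the -0.15 of all tested genes and 0.

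Epithelial partner genes, which feed or hold these lymphocytes, had 10 of 14 tested and no call, with a median log2 difference of 0.01. Il7, a survival cytokine for lymphocytes, stood at 0.941, 0.939, 0.894 and 1.18 RPKM in the mutant libraries and at 0.498, 0.499 and 0.477 in wild type. The groups did not overlap, where 1.97% of tested genes had no overlap upward. The log2 difference of 0.58 (SE 0.11, 95% interval 0.33 to 0.84) came close to the threshold without passing (limma adjusted p = 0.0568). Il18, which drives interferon-gamma output by lymphocytes, stood at 70.8 ± 8.76 and 102 ± 9.93 RPKM (limma adjusted p = 0.0876). It was lower in every mutant library, as were 17.3% of tested genes.

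**Figure D4:**
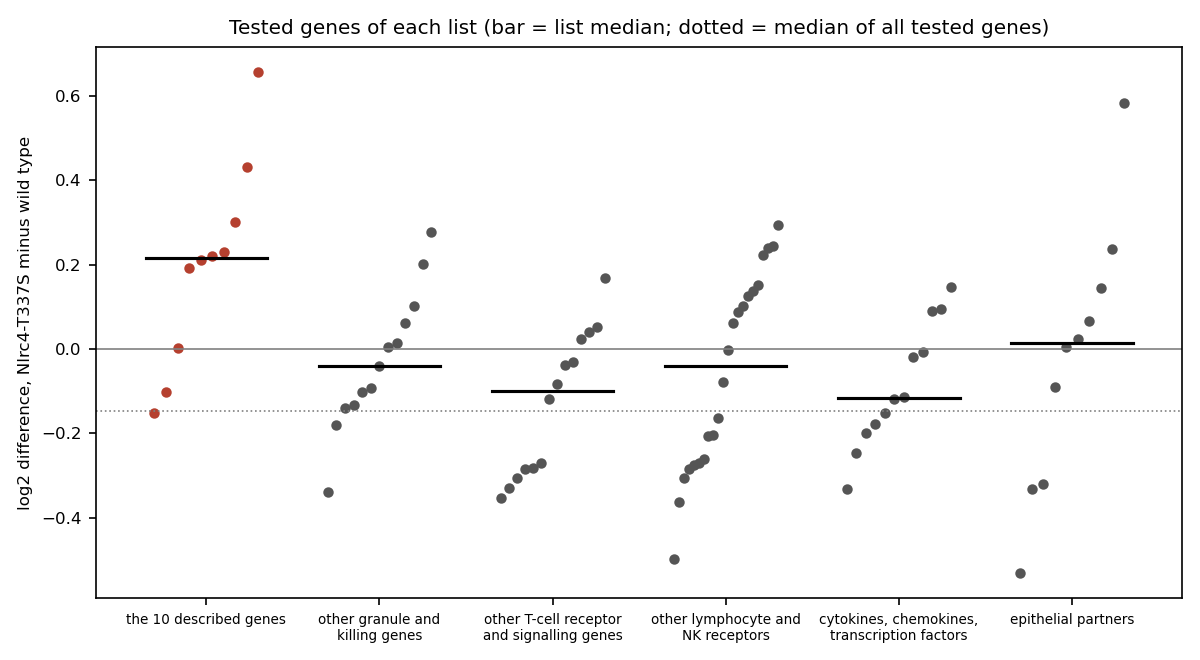
Log2 differences between genotypes (vertical axis, Nlrc4-T337S minus wild type) of the tested genes of each list, with list medians as bars and the median of all tested genes, -0.15, dotted. The 10 described genes have a median of 0.22, the other lists have medians from -0.12 to 0.01, and only Gzmb, among the points drawn, passed.

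Depth ran from 45032119 to 95732587 reads per library after quality filtering, with 84.2% to 97.1% mapped. All libraries showed strong epithelial RNA (Krt20 at 1817 to 2534 RPKM) with lymphocyte RNA among it. Summed markers of other cell types, which were not tested, separated the genotypes for 2 of the lists given here, both downward, as 17.3% of tested genes did. The 6 fibroblast, endothelium and muscle markers summed to 2.36 to 6.18 RPKM in the mutant and 9.18 to 20.5 in wild type, and the 4 mast cell markers to 1.43 to 2.26 and 2.58 to 4.67, neither with overlap. The 5 B and plasma cell markers, at 2.14 to 14.8 and 5.23 to 23.3, and the 5 macrophage and dendritic markers found in the table, at 15.3 to 55.3 and 37.4 to 70.3, overlapped. The helper and regulatory T-cell markers summed to 0.630 to 2.26 and 1.33 to 2.24. Of the NK and innate lymphoid markers, Ncr1 lay at 0.0344 to 0.134 RPKM over all libraries and Il22 at 0 to 0.0170. No list was at 0 throughout, and the part of these cells in the granzyme values was not tested. Without Nlrc4-T337S replicates 1 and 3, which had the lowest stromal sums, Gzmb differed by 0.77 and did not pass (limma adjusted p = 0.105). In the first 4 libraries of the submitters' order (2 of each genotype) Gzmb differed by 0.59 and Gzma by 0.39 on the log2 scale, and in the last 3 (2 mutant and 1 wild type) by 0.75 and 0.49.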

How the data were processed

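RNA from duodenal scrapings was made into libraries with a TruSeq kit, per the labels' protocols; that kit does not keep strand. Per the file headers, the authors mapped reads to mm9 with TopHat 2.1.0 and used Partek 6.16.0606 to compute RPKM. The sources used here give neither their gene models nor their handling of reads that map to several places. The deposited count of quality-passing reads and the deposited fraction mapped gave the depth: 1 read per kilobase was worth 0.0124 to 0.0251 RPKM.

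RPKM is not a count, so log2(RPKM + 0.5) was tested over the 10987 genes with a mean of at least 0.5 RPKM, with limma 3.58.1 in R 4.3.3 (mean-variance trend, no covariate, two-sided, Benjamini-Hochberg at 0.05). Fold changes are on that scale and understate changes of low genes. The fit relative to T-cell identity subtracted, in each library, the mean log2 value of Cd3e, Cd3g and Cd8a. That offset is shared by all genes of a library, so their errors are not independent and its adjusted p-values are too small. Both fits were tested on simulated data, with known changes only in genes above the level of Cd160 and Prf1. Each gene was drawn there independently, with no shift shared between genes, so the share of false calls need not hold for these libraries. The plain fit recovered 47.5% of 1.5-fold and 86.0% of 2-fold changes, and 5.34% of its calls were false. For the relative fit these were 22.7%, 80% and 11.5%. A gene without a call may therefore still differ by such an amount.

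Groups came from the genotype label, and replicates were numbered in accession order, which pairs no libraries. The 10 genes and all lists were chosen with earlier results of these data known. Named besides the 10 were, from each list, genes that passed or the 2 of smallest p, and the 4 genes most like Gzmb and most like the identity mean. Il2rb, Lag3, Cd7, Cd96, Cxcr3, Hcst and Tyrobp were added after their values were seen. Alternatives were pseudocounts of 0.1 and 1, no filter or a mean of at least 2 RPKM, median-of-ratios scaling, quantile normalization, array weights, robust variance moderation, a sample-order term, a threshold of 0.10, other identity levels, and leaving out libraries. Array weight estimation stopped before its tolerance in 1 or more fits. Gene positions are from GENCODE M1 (mm9). Python 3.11.15 with matplotlib 3.10.9 made the plots. The summed level of the NK and innate lymphoid markers is not reported here.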

Additional observations from a re-analysis of the deposited data

How the results depend on the processing

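Of 179 values of the 10 genes under alternatives, 159 kept direction and side of the threshold, 8 lost a call (all Gzmb), 2 gained one and 10 changed sign. Over its 18 alternatives Gzmb ran from 0.57 to 0.83 (limma adjusted p = 0.00772 to 0.206). One of the 10 genes was called higher as reported; 0 were without a filter on low values (Gzmb adjusted p = 0.0838) or without Nlrc4-T337S replicates 1 and 3, an alternative chosen after seeing the data, 3 with median-of-ratios scaling, and 0 to 1 when single libraries were left out. Sign changes, in values not called, were Prf1 to 0.17 (quantile normalization) and 0.014 (without Nlrc4-T337S replicates 1 and 3), with -0.17 to 0.019 over left-out libraries; Cd3e to 0.014 (median-of-ratios), 0.019 (quantile) and 0.12 (without both), with -0.40 to 0.069; and Itgae, at -0.11 to 0.13 over left-out libraries. The cause was not tested.

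Over all genes 33 were called higher and 65 lower. Higher calls were 10 without a filter, 68 with median-of-ratios (beside 59 lower), 74 with quantile normalization, 61 with array weights, 62 at a threshold of 0.10, 1 without Nlrc4-T337S replicates 1 and 3, and 9 to 74 with single libraries left out. Lower calls were 22 without a filter, 28 at a mean of at least 2 RPKM, 287 with array weights, 105 with the sample-order term, 250 at 0.10, 1 without both replicates, and 3 to 1280 with single libraries left out; 1280 was without Nlrc4-T337S replicate 2.

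Relative to T-cell identity, 0 of the 4 granule genes were called by limma as reported, 3 with array weights (Gzma and Gzmb upward, as were 1.88% of genes, and Prf1 downward, as were 41.3%) and 1 (Gzmb) with identity from Cd3g and Cd8a. Prf1 turned to 0.050 with identity from Cd3e alone, and Nkg7 to -0.064 with identity from Cd3g and Cd8a and ran from -0.012 to 0.22 over left-out libraries. The mean granule excess differed by 0.17 as reported and by 0.45 with identity from Cd3e alone, and ran from 0.094 to 0.28 over left-out libraries. Prf1 had the fewest reads per kilobase of the 10 genes.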

Other observations

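The log2 level of Gzmb over the 7 libraries was set beside that of genes outside the 10. Among 9580 tested genes with a mean of at least 1 RPKM, the 10 left out, the highest Pearson correlations with Gzmb were those of Ciita, the MHC class II transactivator (0.99), Jdp2, a transcription factor of the AP-1 family (0.97), Nlrc5, the MHC class I transactivator (0.96), and H2-T23, a nonclassical MHC class I chain (0.96). With mutant libraries first (mean ± SD, n = 4 and n = 3), Ciita had 3.97 ± 0.642 and 1.27 ± 0.235 RPKM, Jdp2 at 1.45 ± 0.111 and 0.675 ± 0.0408, Nlrc5 at 3.23 ± 0.643 and 1.33 ± 0.199, and H2-T23 at 384 ± 44.5 and 294 ± 12.9. Gzma, left out of this search, gave 0.97 with Gzmb. The means of Ciita, Jdp2, Nlrc5 and H2-T23 were higher in the mutant, as for Gzmb, so the genotype difference is part of each correlation. The genes most like the mean of Cd3e, Cd3g and Cd8a were Gxylt1 (0.97), Aplf (0.93), Oaz1 (0.92) and Prkch, a protein kinase C of T cells (0.92). Prkch stood at 1.998 ± 0.5001 and 1.72 ± 0.266 RPKM, mutant first.

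Some lymphocyte genes below the level needed for testing were chosen here after their values were seen. Gzmc, a granzyme gene, lay at 0.108 to 0.3596 RPKM in the mutant and 0.0664 to 0.122 in wild type, with overlap. Klrb1c, which encodes the NK1.1 receptor, lay at 0.439 to 0.588 and 0.265 to 0.329, without overlap. Ifng lay at 0.109 to 0.202 and 0.0513 to 0.119, with overlap, and Tnf at 0.0442 to 0.187 and 0.188 to 0.349, lower in every mutant library by a narrow margin. None of these was tested. Of the CD8 chains, Cd8b1 stood at 1.26 ± 0.576 and 1.61 ± 0.286 RPKM, mutant first, below Cd8a in each library.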
